A study of Mus musculus with 6 samples.

Results

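The 10 genes described here encode pore-forming and auxiliary subunits of voltage-gated calcium channels. They are the 8 pore genes Cacna1a, Cacna1b, Cacna1c, Cacna1d, Cacna1e, Cacna1g, Cacna1h and Cacna1i, and the 2 α2δ genes Cacna2d1 and Cacna2d3. They were chosen by name, and all 10 of 10 were found among the 55357 genes of the ganglion table. The study sequenced 5 libraries of mouse sciatic nerve and 1 library of lumbar dorsal root ganglia, to follow how unmyelinated axons are enclosed by glia. Only the ganglion library is used here. It pooled lumbar ganglia of 8 wild-type C57BL/6 mice, 4 male and 4 female, at postnatal day 14, with no treatment named in the labels. With 1 library there is no replicate and no test, and every interval below is an exact 95% interval that covers counting error only.

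Voltage-gated calcium channels open when the membrane depolarizes and let calcium into the cell, where it triggers transmitter release, gene expression and changes in firing. The pore subunit sets the current type: P/Q-type for Cacna1a, N-type for Cacna1b, L-type for Cacna1c and Cacna1d, R-type for Cacna1e, and the low-voltage-activated T-type for Cacna1g, Cacna1h and Cacna1i. The α2δ subunits bring channels to the surface and to the presynaptic membrane. In sensory neurons of the ganglion, N-type channels carry much of the calcium that releases transmitter in the spinal cord, Cacna2d1 is the target of gabapentin, and Cacna1h is known for its T-type current in mechanosensitive neurons.

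The split into high-voltage-activated and T-type pore genes is written in their coding sequence. Each pore gene codes for 4 repeats, and each repeat holds a loop that lines the ion path. The stretches below are the coding bases of the loop in repeat 3, read 5′ to 3′ on the coding strand from the protein-coding transcript with the longest open reading frame in GENCODE M21 (build GRCm38). They are shown because the codon in capitals, which specifies the acidic residue of the selectivity filter, separates the genes in the same way as the current types used to order the results. Each stretch has 27 bases.
Cacna1a: ttcacagtgtccacaggaGAGggctgg
Cacna1b: ttcacagtgtccacgggaGAGgggtgg
Cacna1c: ttcaccgtctccaccttcGAAgggtgg
Cacna1d: ttcacagtctcaacttttGAGggctgg
Cacna1e: ttcacagtctctacagggGAAggatgg
Cacna1g: tttgtgctggcctccaagGATggctgg
Cacna1h: ttcgtgctgtcatccaagGATggctgg
Cacna1i: tttgtcttggcctccaagGATggctgg
The first 5 genes have a glutamate codon (GAA or GAG) here, and also in repeats 1, 2 and 4. The 3 T-type genes have an aspartate codon (GAT) in repeat 3, another aspartate codon (GAT or GAC) in repeat 4, and glutamate codons in repeats 1 and 2.

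The library held 20845972 UMIs (unique molecular identifiers, each standing for 1 captured RNA molecule) in 5871 barcodes, and 5273 nuclei with 18938182 UMIs were kept. The sample is titled as single cells, but its labels give nuclear RNA and the design text speaks of nuclei; the tissue had been digested with collagenase and papain and cleared of dead cells. Clusters were named by marker genes, so each name means "resembling" and is written with "-like". The neuron classes were neurofilament-rich neurons with large myelinated axons (NF-like, 103 nuclei), non-peptidergic nociceptors and itch neurons (NP1-like 165, NP2-like 46 and NP3-like 117), peptidergic nociceptors (PEP-like, 140), cold-sensing neurons (cold-like, 100) and C-fibre low-threshold mechanoreceptors (cLTMR-like, 113). A further 535 neuron nuclei stayed unnamed, which gives 1319 neuron nuclei in all. Satellite glia-like nuclei, 1304 in number, served as the reference for a cell type that surrounds the neurons. Median depth was 1473 UMIs per nucleus in NF-like, between 7032 and 16478 UMIs in the other 6 named classes, and 2547 in satellite glia-like nuclei. The 17 NF markers summed to 8465 CPM (a gene's UMIs per 1000 UMIs of the class, multiplied by 1000) in NF-like nuclei and to between 1743 and 4928 CPM in the other named classes. The PEP and satellite glia labels are less secure, since another class had the higher marker sum. The margin was also small for NP2, whose markers summed to 1837 CPM in NP2-like and 1739 CPM in myelinating Schwann-like nuclei. The cold markers summed to 3520 CPM in cold-like and 2850 CPM in mesenchymal-like nuclei. The PEP markers summed to 2273 CPM in PEP-like and 2469 CPM in cold-like nuclei, with Trpv1, a marker shared with NP3, at 892 and 1747 CPM, whereas Calca stood at 354 against 103 CPM and Adcyap1 at 152 against 44.2 CPM. The 12 satellite glia markers summed to 12065 CPM in satellite glia-like and 13036 CPM in non-myelinating Schwann-like nuclei, with Sparc, Cdh19 and Abca8a higher in the latter and the other 9 higher in the former, so every ratio over satellite glia-like nuclei rests on a label that these markers share with another glial class. Between 10 and 19 of the 5871 barcodes also occurred in each of the 5 nerve libraries.

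**Figure D1:**
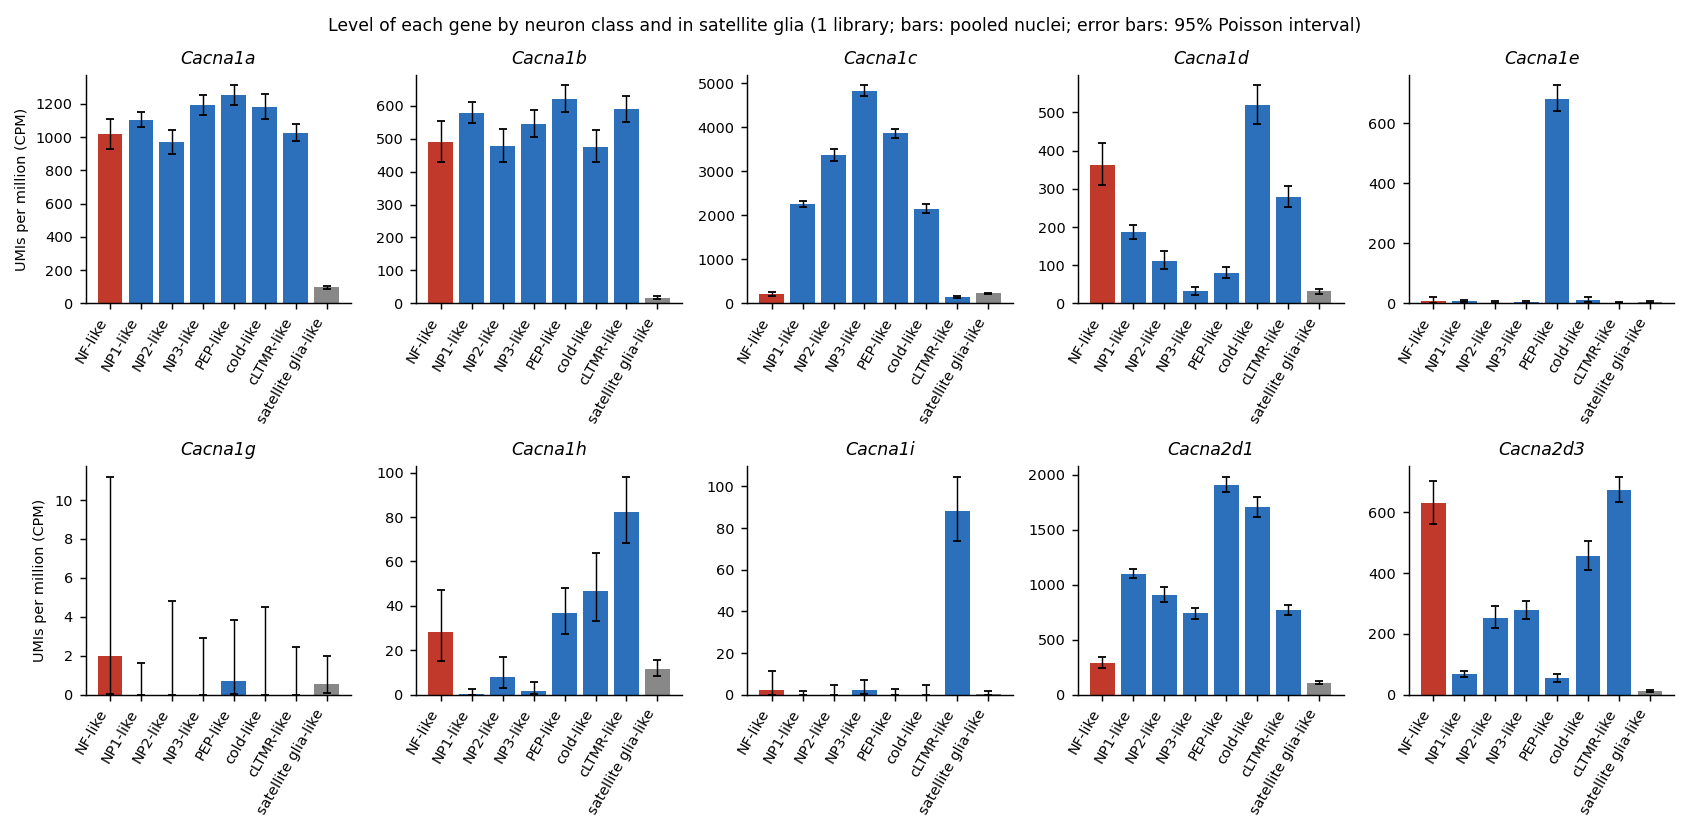
Level of each of the 10 genes in CPM (vertical axis, one scale per panel) in 7 neuron classes and satellite glia-like nuclei, with bars for the pooled nuclei of 1 library and lines for the 95% Poisson interval. Pooled levels of Cacna1a and Cacna1b differ by less than 2-fold between neuron classes. Cacna1e stands out in PEP-like nuclei at 682 CPM and Cacna1i in cLTMR-like nuclei at 88.3 CPM.

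Cacna1a and Cacna1b, the P/Q-type and N-type pores of presynaptic terminals, had the smallest range of the channel genes between neuron classes. Cacna1a stood at 1017 CPM in NF-like, 1105 in NP1-like, 968 in NP2-like, 1191 in NP3-like, 1252 in PEP-like, 1181 in cold-like and 1027 in cLTMR-like nuclei, and at 96.1 CPM in satellite glia-like nuclei. In pooled CPM all 7 neuron classes lay far above the satellite glia-like nuclei and close to one another. Of the 506 UMIs in NF-like nuclei, 93 came from 1 nucleus. Among the 6 classes of at least 50 nuclei, the highest, PEP-like, exceeded the lowest, NF-like, by 1.23-fold (1.11 to 1.36). Of the 5 neighbouring pairs in that order, 4 could not be told apart within counting error, and NP1-like exceeded cLTMR-like by 1.08-fold (1.01 to 1.15). Which class came first depended on the processing: it was NP1-like after median-of-ratios scaling and NP3-like under 3 other settings.

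For Cacna1b the levels were 488 CPM in NF-like, 579 in NP1-like, 478 in NP2-like, 545 in NP3-like, 619 in PEP-like, 476 in cold-like and 590 in cLTMR-like nuclei, against 16.7 CPM in satellite glia-like nuclei. No neighbouring pair differed beyond counting error, and PEP-like exceeded cold-like by 1.30-fold (1.15 to 1.47). When each nucleus counted equally, the highest class exceeded the lowest by 1.42-fold for Cacna1a and 1.69-fold for Cacna1b. In nuclei of at least 5000 UMIs, Cacna1a was present in each of the 21 NF-like nuclei (127 to 2497 CPM, median 747) and each of the 100 PEP-like nuclei (179 to 2581 CPM, median 1231). These ranges include the counting error of single nuclei. That depth was chosen after the data were seen.

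A nucleus with more UMIs shows more genes, so shares of nuclei were compared after each was thinned to 1000 UMIs. At that depth, Cacna1a had a UMI in 49.3% of 73 NF-like nuclei (37.4% to 61.3%), 63.0% of NP1-like, 69.1% of NP3-like, 73.9% of PEP-like, 69.1% of cold-like and 71.4% of cLTMR-like nuclei. In satellite glia-like nuclei it had one in 8.55% (7.06% to 10.2%). Without thinning, the shares were 62.1% in NF-like, 93.6% in PEP-like and 20.8% in satellite glia-like nuclei. Cacna1b was found at matched depth in 34.2% of NF-like nuclei (23.5% to 46.3%), in 37.0% to 46.4% of the other classes of at least 50 nuclei, and in 2.08% of satellite glia-like nuclei (1.36% to 3.03%). Both genes were therefore above the satellite glia-like share in each of these neuron classes. For Cacna1a the NF-like interval lay below that of PEP-like nuclei (65.6% to 81.1%).

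Both L-type genes varied widely between classes. Cacna1c, the L-type pore also known from heart and smooth muscle, stood at 4830 CPM in NP3-like, 3862 in PEP-like, 3373 in NP2-like, 2255 in NP1-like and 2154 in cold-like nuclei. It stood at 217 CPM in NF-like and 148 CPM in cLTMR-like nuclei, beside 227 CPM in satellite glia-like nuclei. The named classes thus fell into 5 with high and 2 with low levels. Among the unnamed neurons, a sub-cluster of 122 nuclei that scored highest for cLTMR stood between these at 1037 CPM. The other unnamed sub-clusters stood at 1975 to 3537 CPM. NP3-like exceeded cLTMR-like by 32.6-fold (28.5 to 37.4). NF-like nuclei did not differ from satellite glia-like nuclei beyond counting error (ratio 0.957, 0.775 to 1.17), and cLTMR-like nuclei were below them (ratio 0.652, 0.560 to 0.758). Dcp1b, which overlaps Cacna1c on the other strand, stood at 34.2 CPM in NF-like, 15.3 in cLTMR-like and 56.8 in satellite glia-like nuclei. Its part in these ratios was not tested.

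At matched depth Cacna1c was found in 96.4% of NP3-like, 95.5% of PEP-like, 81.8% of NP1-like and 73.2% of cold-like nuclei. The share was 17.8% in NF-like nuclei (9.84% to 28.5%), 17.9% in cLTMR-like nuclei (11.3% to 26.2%) and 18.9% in satellite glia-like nuclei (16.8% to 21.2%). In the 2 low classes the share was thus not above that of satellite glia-like nuclei. At full depth it was 41.7% in NF-like, 74.3% in cLTMR-like and 39.3% in satellite glia-like nuclei. The part of free RNA in these low levels was not tested. The nuclei of at least 5000 UMIs gave the same picture, with a median of 132 CPM (0 to 495) in 87 cLTMR-like nuclei and 4522 CPM (307 to 14932) in 93 NP3-like nuclei.

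Cacna1d, the L-type pore that opens at more negative voltages, was ordered differently. It stood at 519 CPM in cold-like, 362 in NF-like, 280 in cLTMR-like, 187 in NP1-like, 111 in NP2-like, 80.1 in PEP-like and 31.5 in NP3-like nuclei, with 31.2 CPM in satellite glia-like nuclei. Each neighbouring pair of classes of at least 50 nuclei differed beyond counting error, and cold-like exceeded NP3-like by 16.5-fold (11.9 to 23.4). NP3-like nuclei, where Cacna1c was highest, had Cacna1d at the level of the satellite glia-like nuclei. Dcp1a, which overlaps Cacna1d on the other strand, stood at 29.1 CPM in NP3-like and 46.8 CPM in satellite glia-like nuclei. Its part in these low counts was not tested. With the stricter filter on nuclei, NF-like came first at 365.6 CPM and cold-like second at 342 CPM. The matched-depth shares were 29.9% in cold-like, 22.3% in cLTMR-like, 20.5% in NF-like, 16.4% in NP1-like, 8.21% in PEP-like and 0.909% in NP3-like nuclei, against 2.96% in satellite glia-like nuclei.

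Cacna1e, the R-type pore, was concentrated in 1 class. It stood at 682 CPM in PEP-like nuclei (640 to 725), at 12.3 in cold-like, 8.04 in NF-like, 6.70 in NP1-like, 3.94 in NP3-like, 2.62 in NP2-like and 1.33 in cLTMR-like nuclei, and at 4.73 CPM in satellite glia-like nuclei. PEP-like nuclei exceeded the next class, cold-like, by 55.6-fold (30.1 to 116). The other 5 classes of at least 50 nuclei formed an unbroken run in which no neighbours differed beyond counting error. The ends of that run had intervals apart, cold-like at 5.88 to 22.6 CPM and cLTMR-like at 0.161 to 4.80 CPM. At matched depth 41.0% of PEP-like nuclei had a UMI (32.6% to 49.9%), against 0 of 165 NP1-like nuclei, which at this depth allows a share of up to 1.82%, and 0.639% of satellite glia-like nuclei. At full depth 14 of the 165 NP1-like nuclei (8.48%), 79.3% of PEP-like and 1.30% of satellite glia-like nuclei had a UMI.

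Cacna1e also varied among PEP-like nuclei. Of 100 such nuclei with at least 5000 UMIs, 10 had none, the median was 508 CPM and the highest was 3585 CPM. A further 3 neuron sub-clusters that scored highest for PEP but stayed unnamed, with 33, 45 and 93 nuclei, had Cacna1e at 722, 792 and 415 CPM. Cacna1e was thus high in PEP-scoring nuclei outside the named class as well. The unnamed sub-clusters that scored highest for NP1 and cLTMR had it at 61.9 and 78.1 CPM. At a clustering resolution of 0.5 the NF-like class grew to 118 nuclei and its Cacna1e level rose to 249 CPM.

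Of the 3 T-type genes, only Cacna1h and Cacna1i were measurable in neurons. Cacna1g had 2 UMIs in 1319 neuron nuclei and 2 UMIs in 1304 satellite glia-like nuclei, so it was not detectable in neurons at this depth and no ratio is given. Cacna1h stood at 82.3 CPM in cLTMR-like (124 UMIs), 46.6 in cold-like, 36.6 in PEP-like, 28.1 in NF-like, 7.85 in NP2-like, 1.58 in NP3-like and 0.447 in NP1-like nuclei, and at 11.7 CPM in satellite glia-like nuclei. The 2 low classes of at least 50 nuclei, NP3-like with 2 UMIs and NP1-like with 1, lay below the glial level. cLTMR-like nuclei exceeded cold-like ones by 1.77-fold (1.22 to 2.61), whereas neither cold-like and PEP-like nor PEP-like and NF-like nuclei could be told apart within counting error. The matched-depth shares of Cacna1h, 8.25% in cold-like and 4.46% in cLTMR-like nuclei, go against these levels, so no order is read from them.

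Nearly all Cacna1i UMIs of the named neurons lay in 1 class. It had 133 UMIs in cLTMR-like nuclei (88.3 CPM, 73.9 to 105), 3 in NP3-like, 1 in NF-like and 0 in NP1-like, NP2-like, PEP-like and cold-like nuclei, with 1 UMI in satellite glia-like nuclei. Against the floor of 3 UMIs that a count of 0 allows in cold-like nuclei, cLTMR-like nuclei were 24.0-fold higher. The exact interval of that ratio, from the counts themselves, had its lower limit at 19.2. Against NP3-like nuclei they were 37.4-fold higher (12.5 to 184). In cLTMR-like nuclei 58.4% had a UMI before thinning and 16.1% (9.81% to 24.2%) at matched depth. Of 87 such nuclei with at least 5000 UMIs, 31 had none and the median was 86.8 CPM. The remaining 19 neuron UMIs of Cacna1i lay in the unnamed neurons.

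The α2δ genes were ordered differently from each other. Cacna2d1 stood at 1911 CPM in PEP-like, 1704 in cold-like, 1102 in NP1-like, 907 in NP2-like, 767 in cLTMR-like, 739 in NP3-like and 287 in NF-like nuclei, and at 110 CPM in satellite glia-like nuclei. All neuron classes were above the glia, NF-like by 2.61-fold (2.14 to 3.16). PEP-like exceeded NF-like by 6.65-fold (5.62 to 7.92), and among neighbours in the pooled order only cLTMR-like and NP3-like were inseparable. Of the 1389 UMIs in cold-like nuclei, 144 came from 1 nucleus. In nuclei of at least 5000 UMIs the median was 931 CPM in 66 cold-like and 971 CPM in 144 NP1-like nuclei. At matched depth it was found in 79.1% of PEP-like, 62.4% of NP1-like, 59.8% of cold-like and 26.0% of NF-like nuclei, against 9.99% of satellite glia-like nuclei. The order of cold-like and NP1-like nuclei therefore depended on the measure.

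Cacna2d3, the α2δ gene tied to heat sensing in genetic screens, stood at 674 CPM in cLTMR-like, 629 in NF-like, 455 in cold-like, 277 in NP3-like, 253 in NP2-like, 67.0 in NP1-like and 53.9 in PEP-like nuclei, with 11.7 CPM in satellite glia-like nuclei. PEP-like nuclei, the highest class for Cacna2d1, were at the low end for Cacna2d3, together with NP1-like nuclei, from which they could not be told apart (NP1-like over PEP-like 1.24, 0.940 to 1.66). cLTMR-like exceeded PEP-like by 12.5-fold (9.93 to 16.0), and cLTMR-like and NF-like were inseparable in pooled UMIs (ratio 1.07, 0.943 to 1.22). Of the 313 UMIs in NF-like nuclei, 57 came from 1 nucleus. In nuclei of at least 5000 UMIs the median was 364 CPM in 21 NF-like, 590 in 87 cLTMR-like and 352 in 66 cold-like nuclei. The matched-depth shares were 43.8% in cLTMR-like, 39.7% in NF-like, 35.1% in cold-like, 20.9% in NP3-like, 7.27% in NP1-like and 5.22% in PEP-like nuclei, against 1.12% in satellite glia-like nuclei.

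Of the 9 genes that could be compared across the 6 classes of at least 50 nuclei, 7 had a range over 2-fold with intervals apart. Such a range was found in 55.7% of the 10845 genes tested, so a range of this kind was common. The exceptions were Cacna1a and Cacna1b. The count was 7 under each alternative that recomputed it, which leaves out those of the thinning, the reference and the named neuron classes only.

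**Figure D2:**
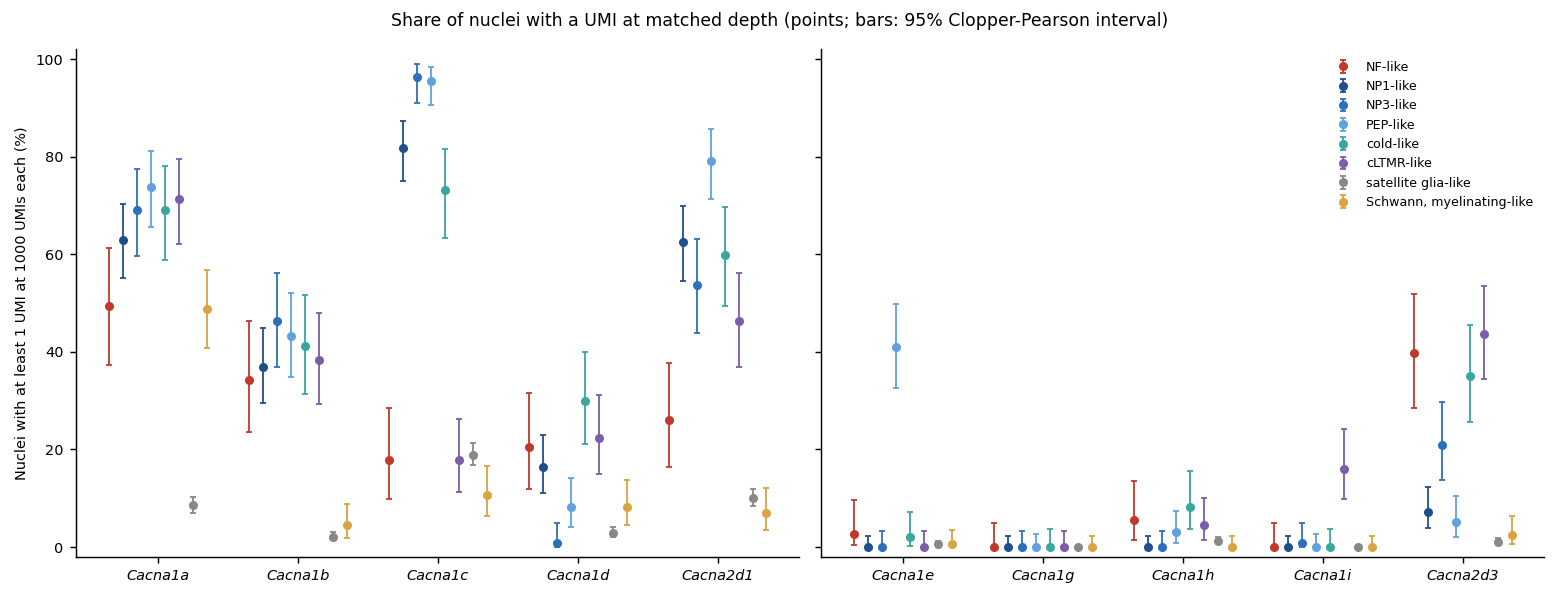
Share of nuclei (vertical axis, percent) with at least 1 UMI of each gene after thinning every nucleus to 1000 UMIs, with points for classes and lines for the 95% Clopper-Pearson interval. Cacna1c sits at the satellite glia-like share in NF-like and cLTMR-like nuclei, and Cacna1a in myelinating Schwann-like nuclei (48.7%) sits beside NF-like nuclei (49.3%).

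The first comparison asked which channel genes were neuronal. A gene was counted as higher when its CPM ratio was over 2 with at least 20 UMIs in both groups together. All 9 genes that could be compared were over 2-fold higher in the 1319 neuron nuclei than in satellite glia-like nuclei, against 25.3% of 17378 genes tested. The median ratio of the 9 was 11.2, beside 0.942 over all genes tested. Cacna1e was 34.2-fold higher (21.3 to 58.9), Cacna1b 32.9-fold (25.6 to 43.2), Cacna2d3 22.5-fold (16.6 to 31.3), Cacna1a 11.2-fold (10.0 to 12.5), Cacna1c 11.0-fold (10.2 to 11.8), Cacna2d1 10.5-fold (9.46 to 11.6), Cacna1d 5.75-fold (4.75 to 7.02) and Cacna1h 2.43-fold (1.75 to 3.44). Cacna1i, with 156 UMIs against 1, had a ratio of 54.3 (9.60 to 2156). At a clustering resolution of 0.5 Cacna1h was 1.94-fold higher and no longer counted. With all Schwann-like nuclei as the reference, the ratio of Cacna1a was 2.42 and that of Cacna1d 2.55.

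Free RNA can give glial nuclei UMIs of neuronal genes. The 13 neuron markers stood in satellite glia-like nuclei at between 2.87% (Syt1) and 110% (Nefl) of their level in neurons. For the channel genes other than Cacna1g this percentage ran from 1.84% (Cacna1i) to 41.2% (Cacna1h). The part of free RNA in the glial levels was not tested. In 6 of 6 neuron classes at matched depth, the shares of Cacna1a, Cacna1b, Cacna2d1 and Cacna2d3 exceeded the satellite glia-like share. These are 4 of 9 genes, against 7.45% of 17378 genes tested. Cacna1c moved across this line with the setting, since its shares in NF-like (17.8%) and cLTMR-like nuclei (17.9%) were close to the glial 18.9%.

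**Figure D3:**
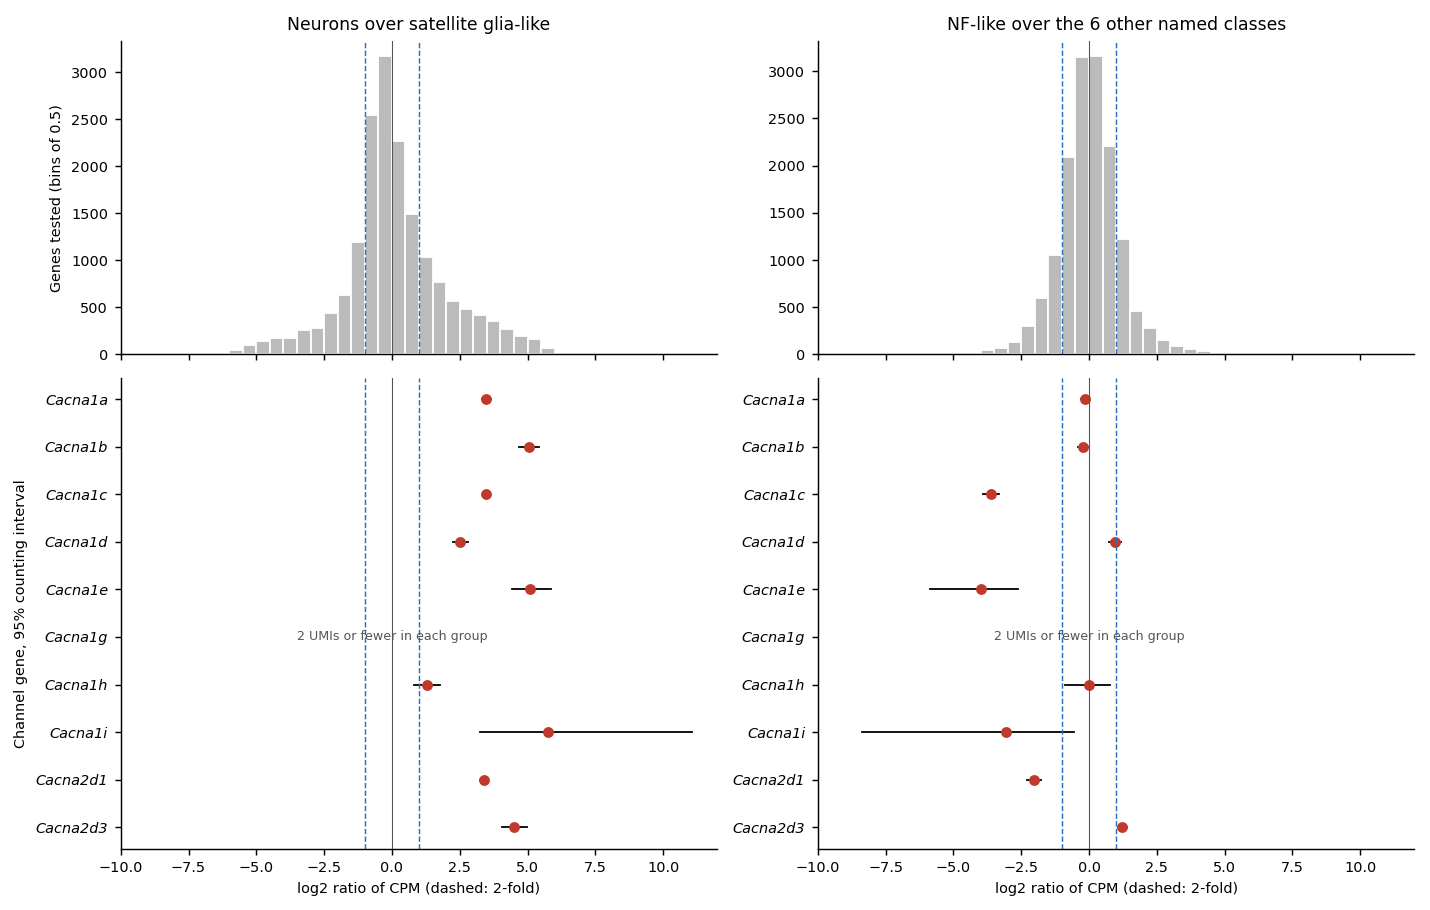
Distribution of log2 CPM ratios over all genes tested (upper panels, number of genes per bin of 0.5, with a count of 0 set to 3) and the ratio of each channel gene with its 95% counting interval (lower panels), for neurons over satellite glia-like nuclei and for NF-like over the 6 other named classes. In the right panels 4 channel genes lie left of the lower 2-fold line and 1 lies right of the upper one.

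The second comparison set NF-like neurons, whose axons are myelinated, against the 681 nuclei of the 6 other named classes, most of which are C-fibre types. Of 9 genes compared, 1 was over 2-fold higher in NF-like nuclei, against 14% of 15208 genes tested, and 4 were over 2-fold lower, against 14.7%. Cacna2d3 stood at 629 CPM in NF-like and 268 CPM in the other classes, a ratio of 2.34 (2.08 to 2.64). Cacna1c stood at 217 against 2652 CPM, which is 12.2-fold higher in the other classes (10.1 to 14.9). Cacna1e, with 4 UMIs in NF-like nuclei, was 15.8-fold higher in the other classes (6.15 to 58.1), and Cacna2d1 was 4.07-fold higher there (3.45 to 4.84). For Cacna1i the ratio was 8.41 (1.48 to 335) on 1 UMI in NF-like nuclei, and nearly all of the other 136 UMIs came from cLTMR-like nuclei.

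Cacna1d fell just short of the threshold, with 362 against 187 CPM and a ratio of 1.94 (1.65 to 2.26). Cacna1a (0.904, 0.825 to 0.989), Cacna1b (0.868, 0.760 to 0.988) and Cacna1h (1.01, 0.544 to 1.73) differed by less than 2-fold. The pool of 6 classes hides opposite patterns, since cLTMR-like nuclei, which are in the pool, had Cacna1c at 148 CPM and Cacna2d3 at 674 CPM. NF-like nuclei were shallow, and 5 of them held 38.6% of the class's UMIs. The satellite glia markers summed to 1795 CPM in NF-like nuclei and to between 876 and 1026 CPM in the other classes, with at most 2 of 12 at 0 in any class, and the part of depth and of glial RNA in these ratios was not tested. When each nucleus counted equally, Cacna2d3 had a ratio of 1.73 and Cacna1h one of 2.11, so the gene past the threshold changed while the count stayed at 1. At a clustering resolution of 0.5 Cacna2d3 had a ratio of 1.79, Cacna2d1 was 1.80-fold higher in the other classes, and Cacna1e turned to 1.51-fold higher in NF-like nuclei.

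**Figure D4:**
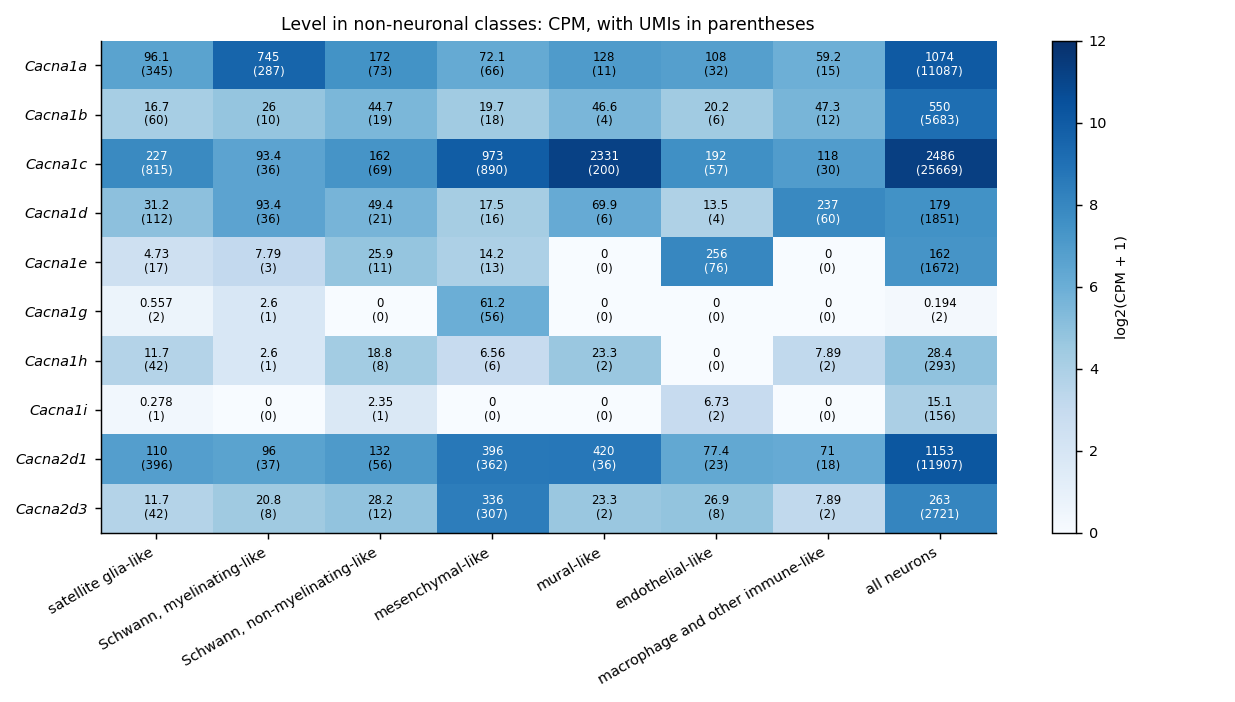
Level of each channel gene in 7 non-neuronal classes and in all neurons, as CPM with the number of UMIs in parentheses (colour: log2 of CPM + 1). Cacna1a is high in myelinating Schwann-like nuclei (745 CPM), Cacna1c in mural-like nuclei (2331 CPM) and Cacna1g in mesenchymal-like nuclei (61.2 CPM).

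Outside neurons, the highest Cacna1a level was in myelinating Schwann-like nuclei. It stood at 745 CPM in these 192 nuclei (661 to 836), at 172 CPM in 246 non-myelinating Schwann-like nuclei and at 96.1 CPM in satellite glia-like nuclei. The ratios were 7.75 over satellite glia-like (6.61 to 9.09) and 4.34 over non-myelinating Schwann-like nuclei (3.34 to 5.69), and between 4.18 and 4.86 for the latter under the alternatives. At matched depth 48.7% of myelinating Schwann-like nuclei had a UMI (40.7% to 56.8%), against 14.5% of non-myelinating Schwann-like nuclei. The other presynaptic pore gene, Cacna1b, stood there at 26.0 CPM on 10 UMIs. The 13 neuron markers summed to 1586 CPM in myelinating Schwann-like, 1924 in non-myelinating Schwann-like and 1271 in satellite glia-like nuclei, with none at 0, beside 5199 to 7269 CPM in the neuron classes.

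Of 8 genes compared, Cacna1a and Cacna1d were over 2-fold higher in myelinating Schwann-like than in satellite glia-like nuclei, against 13.9% of 12517 genes tested. Cacna1d stood at 93.4 against 31.2 CPM, a ratio of 3.00 (2.00 to 4.40). The protein-coding genes Chdh and Dcp1a overlap Cacna1d on the other strand. Chdh stood at 77.9 CPM in myelinating Schwann-like and 27.8 CPM in satellite glia-like nuclei, and Dcp1a at 57.1 and 46.8 CPM. Their part in the Cacna1d counts was not tested. Against non-myelinating Schwann-like nuclei only Cacna1a of 6 was over 2-fold higher, with 10.2% of genes tested past that line. An annotated antisense gene, Gm16183, overlaps Cacna1a on the other strand. Its counts followed those of Cacna1a, with 130 CPM in myelinating Schwann-like nuclei, 8.63 in satellite glia-like nuclei and between 179 and 345 CPM in the neuron classes. Whether the counting used strand is not given in the sources used here. Reads of Cacna1a and Gm16183, of Cacna1c and Dcp1b, or of Cacna1d and its overlapping genes, therefore cannot be told apart.

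Mesenchymal-like nuclei, 347 in number, held 5 of 9 channel genes at over 2-fold the satellite glia-like level, against 17.0% of genes tested. Cacna1g had 56 of its 75 UMIs in these nuclei, spread over 43 of them (61.2 CPM, 46.2 to 79.5). Cacna1c stood at 973 CPM, Cacna2d1 at 396 CPM and Cacna2d3 at 336 CPM, the last 28.7-fold above satellite glia-like nuclei (20.7 to 40.6). Cacna1e was the other gene, at 14.2 CPM on 13 UMIs. Mural-like nuclei, the contractile and pericyte cells of vessels, numbered 45 and had Cacna1c at 2331 CPM (2019 to 2677), 10.3-fold above satellite glia-like nuclei and near its level in NP1-like neurons. Here 4 of 7 genes passed the 2-fold line, against 19.4% of genes tested, of which Cacna1b and Cacna1d rested on 4 and 6 UMIs.

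Endothelial-like nuclei had Cacna1e at 256 CPM (201 to 320) on 76 UMIs in 22 of 150 nuclei, and 2 of 8 genes passed the line, against 19.0% of genes tested. Macrophage and other immune-like nuclei had Cacna1d at 237 CPM (181 to 305) on 60 UMIs in 35 of 144 nuclei, and 2 of 7 genes passed, against 21.7%. In non-myelinating Schwann-like nuclei 3 of 8 passed, against 12.5%, and these were Cacna1b, Cacna1e and Cacna2d3 on 19, 11 and 12 UMIs. Cacna1e was therefore found at high level in 1 vessel class besides the PEP-scoring neurons. It had 0 UMIs in mural-like and immune-like nuclei, which allows up to 35.0 and 11.8 CPM.

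Likeness of pattern was measured by Pearson's r of log2(CPM + 10) over 7 classes, the 6 neuron classes of at least 50 nuclei and satellite glia-like nuclei, among 6980 genes with at least 200 UMIs in neurons. The points share 1 library, and with 7 of them high values are easily reached, so they are given as a description. Cacna1a and Cacna1b were each among the other's 3 most alike genes (r = 0.994), together with Rundc3a. Cacna1e was most like Galr1 (r = 0.986), which codes for a galanin receptor, and Trpc7 (r = 0.986). Cacna1c was most like Zfp821 (r = 0.978) and Cacna1i most like Crybg3 (r = 0.977). The gene most like Cacna2d3 was Lrtm1 (r = 0.982), which the annotation places inside Cacna2d3 on the other strand. Lrtm1 stood at 150 CPM in cLTMR-like, 115 in NF-like, 78.5 in cold-like and 3.45 in PEP-like nuclei, and without knowledge of strand its counts cannot be told apart from those of its host.

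The partners of the pore were compared over the same 2 contrasts. All 4 β subunits, which bind the pore inside the cell, were over 2-fold higher in neurons than in satellite glia-like nuclei, against 25.3% of genes tested, led by Cacnb4 at 503 against 49.6 CPM (10.1-fold, 8.73 to 11.8). Cacnb1 (0.433, 0.157 to 0.957) and Cacnb2 (0.478, 0.286 to 0.753) were over 2-fold lower in NF-like than in the other named classes, against 14.7% of genes tested, while Cacnb4 stood at 613 against 516 CPM. The median ratios of the 4 were 5.27 for neurons over satellite glia-like nuclei and 0.624 for NF-like over the other classes, beside 0.942 and 1.01 over all genes tested. Cacna2d2, the other α2δ gene with enough UMIs, was 33.7-fold higher in neurons (22.8 to 52.2) and, like Cacna2d1, lower in NF-like nuclei (ratio 0.293, 0.207 to 0.403). The remaining pore genes, Cacna1f and Cacna1s, had 10 and 0 UMIs in neurons.

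Of 6 γ subunits compared, 5 were over 2-fold higher in neurons and 1, Cacng4, was lower, against 25.3% and 20.1% of genes tested. Cacng4 stood at 124 CPM in satellite glia-like nuclei and 5.52 CPM in neurons. Among 10 channel modulators, 7 were higher in neurons and 0 lower, against the same shares. Stac, whose protein binds L-type channels, was 57.5-fold higher in neurons (44.8 to 75.0), and in NF-like nuclei it stood at 74.4 CPM against 1042 CPM in the other classes (ratio 0.0714, 0.0502 to 0.0985). Fgf14 ran the other way, at 587 CPM in NF-like and 35.6 CPM in the other classes (16.5-fold, on 292 and 286 UMIs).

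Of 19 genes of the presynaptic release machinery, 14 were over 2-fold higher in neurons and 1 lower, against 25.3% and 20.1% of genes tested. Syt1 and Snap25, 2 of the 14, were also used to name the neurons. Between neuron classes 7 of the 19 were higher and 3 lower in NF-like nuclei, against 14% and 14.7%. Syt2, a fast calcium sensor for release, was 11.4-fold higher in NF-like nuclei (9.08 to 14.4), and Syt7, a slow one, had a ratio of 0.131 (0.0923 to 0.180). Of 25 genes of calcium release, extrusion and buffering, 11 were higher and 3 lower in neurons, against 25.3% and 20.1%, with Slc8a1, a sodium-calcium exchanger, at 37.6-fold (26.3 to 55.9) and Itpr3, a calcium release channel, at a ratio of 0.0490 (0.0387 to 0.0615). In NF-like nuclei 11 of the 25 were over 2-fold higher, among them the release channels Ryr2 (8.87-fold, 7.58 to 10.4) and Ryr3, and 3 were lower, among them Camk2a (ratio 0.0868, 0.0543 to 0.132), against 14% and 14.7% of genes tested. Pvalb and Calb1, 2 of the 25, were also used to name the NF-like class.

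All 9 voltage-gated sodium channel genes compared were over 2-fold higher in neurons, against 25.3% of genes tested. In NF-like nuclei 3 of the 9 were over 2-fold higher and 3 lower, against 14% and 14.7% of genes tested. The higher ones were Scn1a (10.4-fold, 8.63 to 12.5), Scn8a (4.82-fold, 4.09 to 5.67) and Scn2a (2.31-fold, 1.91 to 2.78). Among the 3 lower were Scn10a (ratio 0.0828, 0.0593 to 0.112) and Scn11a (0.0902, 0.0534 to 0.143), which code for the tetrodotoxin-resistant channels of nociceptors. Scn11a and Scn7a served as markers when clusters were named.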

How the data were processed

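The deposited file of the ganglion library holds UMI counts per gene and barcode, restricted to called barcodes; Cell Ranger 7.1.0 made it, per the file headers. Seurat and the build mm9 are named in the submitters' processing notes. For intronic reads, strand and annotation release, the counting settings are not stated in the labels or headers; 52081 of the 55357 gene identifiers are in GENCODE M21. In nuclear RNA, long genes with many introns can give more UMIs, so levels are compared between classes and not between genes.

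Barcodes with at least 300 genes, 500 UMIs and at most 5% mitochondrial UMIs were kept (5786 of 5871). Scrublet's own threshold called 0%, so barcodes in about the highest 8% of doublet scores (513, or 8.87% with ties) were removed. Clustering in scanpy 1.11.5 used 2000 variable genes without the channel and listed genes (markers excepted), 30 components, 15 neighbours and Leiden resolution 1 (igraph 0.11.9). Neurons were clustered again. To be named, a cluster had to show 3 of a class's markers in 10% of its nuclei or more and a score of 0.2 (0.5 for neurons); this minimum follows an earlier treatment of these data and was set with the clusters seen. In all, 1411 non-neuronal nuclei stayed unnamed, 999 of them in a cluster that scored highest for satellite glia but had 1 marker of another class and 0 of its own among its top 10 genes. With 46 nuclei, NP2-like was left out of ranges and matched-depth comparisons, which needed 50.

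UMIs were summed per class and divided by the class total (CPM), with Poisson intervals (scipy 1.17.1); ratios have conditional binomial and shares Clopper-Pearson intervals, at 95%. A count of 0 was taken to allow 3. Thinning drew 1000 UMIs per nucleus without replacement and left out 30 of 103 NF-like, 53 of 1304 satellite glia-like and at most 7 nuclei of each other named neuron class. The call rules and the thinning were tested on simulated data. The channel genes and lists were chosen with earlier results of these data known. Named were all 10 channel genes, genes among the 3 highest or 3 lowest ratios of each list, and the most alike genes (some genes the rule names are not reported here); the overlapping genes, the markers and Cacnb4, Ryr3 and Itpr3 beside them were otherwise chosen where a value turned on them. Other scalings, filters, doublet rules, clusterings, weights, depths and references were tried as alternatives. A class with 0 UMIs of a gene was never counted as higher. No test across samples was possible with 1 library.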

Additional observations from a re-analysis of the deposited data

How the results depend on the processing

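The 16 alternatives changed the scaling, the filters, the doublets, the clustering, the weights, the minimum of UMIs, the thinning or the reference; 3 were chosen after seeing the data (named neuron classes only, satellite glia-like nuclei with the unnamed cluster that scored highest for them, and NF-like nuclei without their 5 deepest). Where an alternative recomputed them, the number of channel genes over 2-fold higher in neurons stayed at 8 or 9. The number with a 2-fold range between classes stayed at 7. The number higher in NF-like nuclei was 2 with the filter of 500 genes and 1000 UMIs and with all genes kept in the clustering, where Cacna1d joined at 2.32 and 2.032, and 0 at Leiden resolution 0.5. At that resolution 2 genes were lower in NF-like nuclei, and Cacna1e reversed, to 1.51 in NF-like over the other classes and 0.663 the other way round; the cause was not tested. Without thinning, 7 genes had a higher share in each neuron class than in satellite glia-like nuclei, in place of 4; with a thinned depth of 500 or 2000 UMIs or the expected share over all draws it was 5. Of 328 ratios past 2-fold set against an alternative, 326 kept their direction and 318 stayed past 2-fold. These totals include the 33 ratios without a minimum of UMIs, which that setting could not change. They also include ratios between nuclei that an alternative did not touch. The ratios of NF-like and the other classes are counted in both directions, so the totals are no measure of independent agreement. Leaving out the 5 deepest NF-like nuclei changed no count. No paired analysis was possible because the results come from 1 library and no test. Depth limits what can be said of Cacna1g and Cacna1i: 1 UMI in NF-like nuclei corresponds to 2.01 CPM.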
